A study of Mus musculus with 5 samples.

Results

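Binding of REST in the embryonic mouse pancreas was examined at 8 genes of neural cell adhesion and axon guidance. They were the L1 family members L1cam, Nrcam, Chl1 and Nfasc, the cadherins Celsr1, Celsr2 and Celsr3, and the atypical cadherin Cdh13. A REST peak was given to a gene when it overlapped the gene body or lay within 50 kb of its start in the mm9 genome. By this rule 11 of the 1860 sites of the series belonged to 5 of the 8 genes, where 9.80% of all protein-coding genes have a site. REST was mapped by chromatin immunoprecipitation and sequencing (ChIP-seq), with a mouse monoclonal anti-REST antibody, in untreated wild-type pancreas of a mixed strain background with C57BL/6. There were 3 libraries at E18.5, named A, B and C, for which 3 to 4 pancreases were pooled each, and 2 libraries at E13.5, named A and B, for which 4 to 6 were pooled. The deposited data are 1 list of called peaks per library, with a position and a score for each peak. The organ was used whole, so the cell type that carries a peak is unknown.

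REST is a zinc-finger repressor that holds neuronal genes silent outside the nervous system. It reads a long DNA element, RE1, with its zinc fingers, and recruits corepressors and histone-modifying enzymes. RE1 has a left and a right arm, and REST can also bind when the arms are moved further apart than in the usual element. The L1 family are immunoglobulin-domain proteins of the axon surface that hold to each other between cells and to ankyrins inside the cell. The Celsr proteins are the vertebrate relatives of fly Flamingo and act in planar cell polarity and in the growth of axon tracts. Cdh13, or T-cadherin, has no cytoplasmic tail and is tethered to the membrane by a lipid anchor.

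The lists held 541, 417 and 226 peaks in E18.5 A, B and C, and 1400 and 1333 in E13.5 A and B. Overlapping peaks of any library were joined into a site. Peak height was compared as a score rank, the percentile of a peak's score within its own library, where 100 is highest, because no source used here states the unit of the score. The read depth behind a list is unknown, so a missing peak was not called, and absence of binding was not measured.

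REST was called at 1 of the 8 genes in at least 2 E18.5 libraries and at 4 of 8 in both E13.5 libraries. The same rule took 2.20% of 22380 protein-coding genes at E18.5 and 6.89% at E13.5. In any E18.5 library 2 of the 8 were called, against 4.96% of all genes. Within 5 kb of the start 1 of the 8, Celsr3, was called at either stage, against 0.603% of genes at E18.5 and 1.56% at E13.5. The 4 genes at E13.5 were Celsr3, L1cam, Nfasc and Cdh13, and the gene at E18.5 was Celsr3. Nrcam had a peak in 1 library, and Chl1, Celsr1 and Celsr2 had none. A longer window holds more sites by its length alone, and the members' windows had a median of 0.206 Mb, against 0.1 Mb over all genes. The genes were chosen with these peak lists known, and no test was made of the share.

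**Figure D1:**
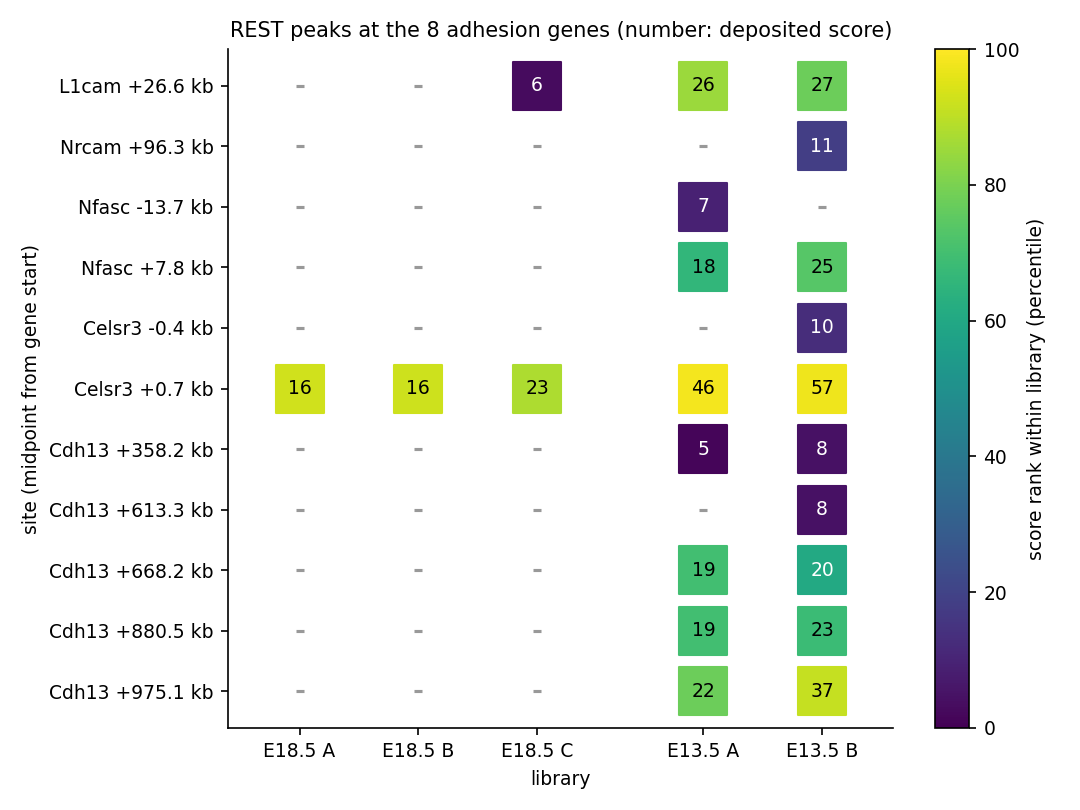
Score rank of every REST site at the 8 genes (rows, named by distance from the gene start in kb) in each library (columns), with the deposited score printed in the square and a dash where no peak was called. The Celsr3 site 0.720 kb from the start is filled in all 5 libraries, and the 5 Cdh13 rows are empty at E18.5.

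The elements under these sites are shown first, because every one of the 11 sites held one in some form. So did 93.1% of all 1183 sites called in both E13.5 libraries and searched. No share was computed for sites of 1 library, and the count is not read as a trait of these genes. A matrix was learnt from 911 of the shared E13.5 sites outside the windows of the 8 genes, and its consensus was NTCAGCACCNNGGACAGCNCC, where N marks a column of low information. A match is a stretch whose matrix score passes a limit reached by 1% of control windows 10 kb away, searched on both strands in the 500 bp around a site. Both arms and the tight spacing between them count towards the score, which can reach at most 35.02 bits. Capitals mark the 21 bases of the element in the genome and lower case the 4 bases on either side, and positions (mm9) are those of the capitals. For the sites with fewer than 3 matches, the best match shows how far the copies depart from the consensus:
L1cam, chrX:71114876-71114896, minus strand: gggcGTCAGCACCATGGACAGGAACatac
Nrcam, chr12:45526230-45526250, plus strand: agttCTCAGGACCAAGGAGAGCGTCctgc
Nfasc, intron 1, chr1:134630592-134630612, plus strand: tcacATCAGCACTGCGGACAGCGACaagc
Celsr3, upstream, chr9:108728249-108728269, plus strand: tccgTTCAGCACCGTGGGCAGCACTtctg
Cdh13, 613 kb, chr8:121420991-121421011, plus strand: actaTAAAGCACCATGGACAGAGATcttc
Cdh13, 668 kb, chr8:121475848-121475868, plus strand: tgcaTTCAGGACCGTGGACAGCGCCcaat
Cdh13, 881 kb, chr8:121688156-121688176, plus strand: tccgCTCAGGACCATGGACAGCACCaggt

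A contiguous match was found at 9 of the 11 sites, with scores between 17.1 and 31.2 bits. No such share was computed over all sites of the series, which include those of 1 library. Of the 7 sites shared by both E13.5 libraries 6 held one, against 81.4% of all 1183 shared sites searched and 0.936% of control windows. The limit was set on these control windows, which fixed their share in advance. The matrix was learnt from shared sites outside the 8 genes, so the 81.4% is not independent of it. The element ran on the same strand as the gene at 8 of the 9 sites, the exception being Nfasc intron 1. All 5 Cdh13 sites are among the 8, and no share over all sites is given, so no trait of these genes is read from the count. A match is a stretch of letters, and does not by itself show where the protein sat.

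The remaining pair of sites, at Celsr3 and upstream of Nfasc, had no contiguous match but held an element with its arms moved apart. Capitals mark the 10 bases of each arm, lower case the bases between them, and the strand shown is the one that carries the element:
Celsr3, exon 1, chr9:108729373-108729402, plus strand: TTCAGCACCAcgtgctgtgaGGACAGCTCC
Nfasc, upstream, chr1:134651992-134652020, plus strand: TCCAGCACCAtgtctgcctGGACAGCACC

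In the contiguous element 1 base separates the arms. The gap was 10 bases at Celsr3 and 9 at Nfasc. The Celsr3 element ran on the strand of the gene, and the Nfasc element on the opposite strand. Arms 0 to 20 bases apart whose summed score passed 19.95 bits were found at 138 of the 220 shared sites without a contiguous match (62.7%), and in 11 of 1164 control windows (0.945%). The limit was set on the control windows so that about 1% of them pass it, which fixed their share in advance. The gap was 7 bases at 49 of these sites and 8 bases at 31, so the Celsr3 gap, found at 4 sites, was among the wide ones. Adding split elements brought the shared E13.5 sites with an element to 93.1% of 1183 and the member sites to 7 of 7.

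**Figure D2:**
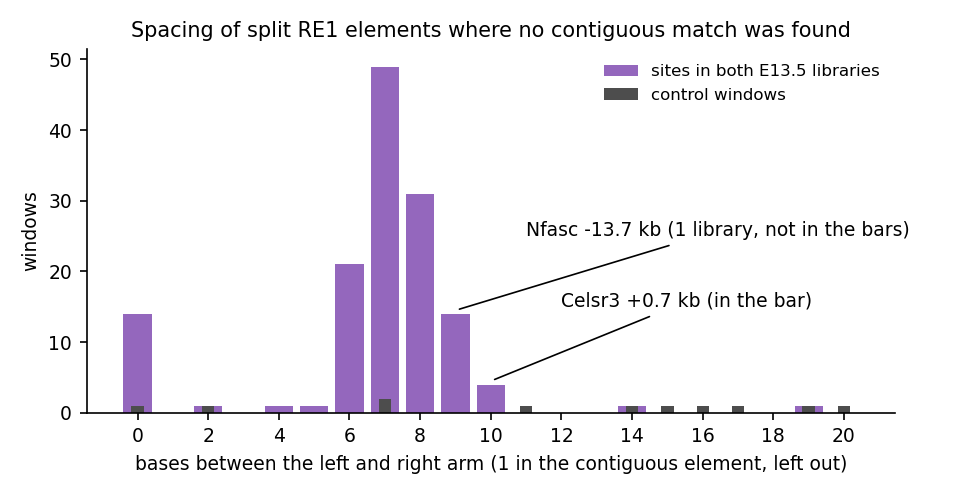
Number of windows (vertical axis) by the number of bases between the RE1 arms (horizontal axis), for shared E13.5 sites without a contiguous match (purple) and control windows without one (dark). The score limit was set so that about 1% of control windows pass it. Most sites have a gap of 6 to 9 bases, the Celsr3 site is in the bar at 10, and the Nfasc site, called in 1 library, is marked at 9 but not counted.

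Celsr3, which guides axon tracts of the forebrain in mice, carried the highest-ranked site of the group. The site (chromosome 9, 108729042 to 108729701, mm9) lay 0.720 kb downstream of the start, in coding exon 1 of 35. Its score was 16, 16 and 23 in E18.5 A, B and C, and 46 and 57 in E13.5 A and B. Those scores are ranks of 92.9, 92.4 and 87.8 in the E18.5 libraries, and of 98.2 and 97.4 in the E13.5 libraries. Every library thus placed it in the upper part of its own list, with the E18.5 ranks below the E13.5 ranks and no overlap. The median ranks of the 113 sites called in all 5 libraries had the same order. They were 81.5, 80.0 and 68.6 in E18.5 A, B and C and 94.3 in either E13.5 library. The order is therefore not read as a trait of Celsr3, and the share of sites with it was not counted. The rank averaged 91.05 ± 2.80 at E18.5 (SD, n = 3) and 97.83 ± 0.593 at E13.5 (SD, n = 2), a difference of -6.78 (exact two-sided permutation test, p = 0.2, adjusted p = 0.267 over 4 comparisons). With 2 libraries against 3 the smallest p possible is 0.2. With every list reduced to its 226 best-scored peaks the rank difference was -1.33 (exact two-sided permutation test, p = 0.8).

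Among the 1186 sites shared by both E13.5 libraries the Celsr3 site took place 28 by mean rank. It was 1 of 113 sites called in all 5 libraries, which 1.03% of protein-coding genes have in their window. Within those 113, between 22 and 29 sites ranked above it in each library. The split element sits at 108729373 to 108729402, 17 bp from the middle of the site, and it was inside the peak of all 5 libraries. Its left arm has 0 mismatches to the consensus and reaches the highest score an arm of that side can have, 16.9 bits, and its right arm has 1 mismatch and 16.4 bits. The gene's start is the nearest one, ahead of Nckipsd at 18.6 kb, Slc26a6 at 27 kb and Ip6k2 at 43.2 kb.

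The sites with the most similar pattern of 5 ranks lay next to Insm2, Snap25 and Glra1. Their Euclidean distances in rank from the Celsr3 site were 3.18, 3.74 and 3.91 over the 5 libraries. Insm2 encodes a zinc-finger factor related to Insm1, Snap25 a part of the vesicle fusion machinery, and Glra1 a subunit of the glycine receptor. The median ranks over the 113 sites, given above, were lower than those of the Celsr3 site in every library.

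Celsr3 also had a peak just upstream of its start (chromosome 9, 108728103 to 108728411, 0.394 kb from the start), called in E13.5 B only with a score of 10 and a rank of 12.8. This weak site holds a contiguous element of 23 bits, while the strong site beside it holds the split one. Its relatives showed no such pair. Celsr1 (chromosome 15, 85729188 to 85864207), which acts in planar polarity of skin and neural tube, and Celsr2 (chromosome 3, 108193769 to 108218470), which acts with Celsr3 in forebrain wiring, had no peak in any of the 5 libraries. The nearest site of any library was 433 kb from Celsr1 and 176 kb from Celsr2, where the nearest start was that of Atxn7l2. Their windows held 8 and 3 RE1 matches, none above 16 bits at Celsr1 or above 13.8 bits at Celsr2.

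L1cam, the founding member of its family and a promoter of axon growth, had a single site. It lay in intron 2 of the gene (chromosome X, 71114589 to 71115149), 26.6 kb downstream of the start. E18.5 A and B had no peak there, and E18.5 C had a score of 6 (rank 2.88), against 26 (rank 85.1) in E13.5 A and 27 (rank 77.7) in E13.5 B. The site thus ranked high in both E13.5 lists and was among the lowest peaks of the only E18.5 list that held it, at place 217 of 226. It took place 231 of 1186 by mean E13.5 rank, and was 1 of 4 shared sites on the X chromosome. The nearest start is not that of L1cam but of Avpr2, the vasopressin receptor gene of the kidney, 22.6 kb away, and the start of Pdzd4 is 44.6 kb away.

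The L1cam site carried 2 elements on the same strand, whose starts are 30 bp apart, with scores of 27.4 and 26.4 bits. The second, TCCAGCACCACGGACAGCAGA, is shown because more than 1 match was found in only 8.54% of the 1183 windows searched. The 3 peaks called at L1cam each contained both elements.

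Nfasc encodes neurofascin, which builds the node of Ranvier and the axon initial segment. Its main site (chromosome 1, 134630370 to 134630856) was in intron 1, 7.76 kb downstream of the start. No E18.5 library had a peak there, against scores of 18 (rank 66.0) in E13.5 A and 25 (rank 73.7) in E13.5 B, which put it at place 384 of 1186. The element scored 23.8 bits. The other Nfasc site, 13.7 kb upstream of the start (chromosome 1, 134651968 to 134652086), was called in E13.5 A only, with a score of 7 and a rank of 9.18. It is the one with the arms 9 bases apart, which together scored 30.7 bits. A well-formed element and a low rank thus stood together at this site.

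Nrcam, a partner of neurofascin in nodes and a receptor in axon guidance, had 1 site, in intron 2 (chromosome 12, 45525925 to 45526502), 96.3 kb downstream of the start. It was called in E13.5 B alone, with a score of 11 and a rank of 18, and its element scored 22.6 bits. Chl1 (chromosome 6, 103460870 to 103699671), the close homologue of L1, had no peak in its window. A site called in both E13.5 libraries (chromosome 6, 103179718 to 103180118) lay 281 kb away, outside the rule, and Chl1 has the nearest start to it.

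Cdh13 had 5 sites, all inside the gene and all absent from the 3 E18.5 lists. It spans 1041 kb (chromosome 8, 120807633 to 121848821), and only 47 protein-coding genes have a longer window. Its 4 sites shared by both E13.5 libraries came to 3.67 per Mb, against 0.447 per Mb over the genome. Counting sites of any library, Cdh13 had 4.58 per Mb of its window. Nrcam had fewer, 3.10 per Mb, while Nfasc, with 8.81 per Mb, L1cam and Celsr3 had more. Cdh13 was chosen with its peaks known, and genes of like length were not compared. No unusual density is therefore read from these values. Cdh13 is expressed in vessels, heart and neurons, where it binds adiponectin and low-density lipoprotein and slows neurite growth.

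The highest-ranked of the 5 was in intron 10 (121782417 to 121782999), 975 kb downstream of the start, with scores of 22 (rank 77.6) in E13.5 A and 37 (rank 91.1) in E13.5 B. Next came the site in intron 7 (121687924 to 121688434), 881 kb from the start, with 19 (rank 69.7) and 23 (rank 68.0). The site in intron 5 at 668 kb (121475615 to 121476131) had 19 (rank 69.7) and 20 (rank 60.3). These 3 took places 191, 396 and 443 of 1186 by mean rank, so all were in the upper part of the E13.5 ranking. The site in intron 2 at 358 kb (121165668 to 121166018) was the opposite, with scores of 5 (rank 1.43) and 8 (rank 4.46) and place 1182. The fifth, at 613 kb in intron 5 (121420755 to 121421073), was called in E13.5 B only with a score of 8 (rank 4.46). For the 4 sites farthest from the Cdh13 start the nearest start was that of Hsbp1, 85.7 to 448 kb away, not that of Cdh13.

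The Cdh13 elements fell into 2 kinds. Single elements were found at 613, 668 and 881 kb, with 17.1, 31.2 and 29.6 bits. The one at 668 kb, with 2 mismatches, outscored the best match of 95.4% of the shared E13.5 windows, and the one at 881 kb outscored 86.6%. The sites at 358 and 975 kb instead carried 3 matches each on the same strand, at regular spacing. Of the 1183 windows 2.28% held 3 or more matches, on any strand and at any spacing. Their sequences are given in genome order, all capitals being element, to show the repeat:
Cdh13, 358 kb, match 1, chr8:121165875-121165895, plus strand: CCCAACACTGTGGACAGAGCC
Cdh13, 358 kb, match 2, chr8:121165910-121165930, plus strand: TCCGACACCATGGACAGAACC
Cdh13, 358 kb, match 3, chr8:121165945-121165965, plus strand: CCCAACACCATGGACAGAGCC
Cdh13, 975 kb, match 1, chr8:121782667-121782687, plus strand: CTCAGTACCACGGTCAGCGCA
Cdh13, 975 kb, match 2, chr8:121782708-121782728, plus strand: TTCAGCACCATGACCAGAACC
Cdh13, 975 kb, match 3, chr8:121782749-121782769, plus strand: TTCAGCACCGTGGCCAGAGGC

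The starts of the 3 matches were 35 bp apart at 358 kb and 41 bp apart at 975 kb. They scored 14.6, 18.3 and 21.1 bits at 358 kb and 22.0, 21.2 and 25.3 bits at 975 kb. The 2 arrays differed in rank as much as any pair of Cdh13 sites, the first being close to the bottom of both E13.5 lists and the second the best of the gene. Every match of either array lay inside the E13.5 A and E13.5 B peaks.

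**Figure D3:**
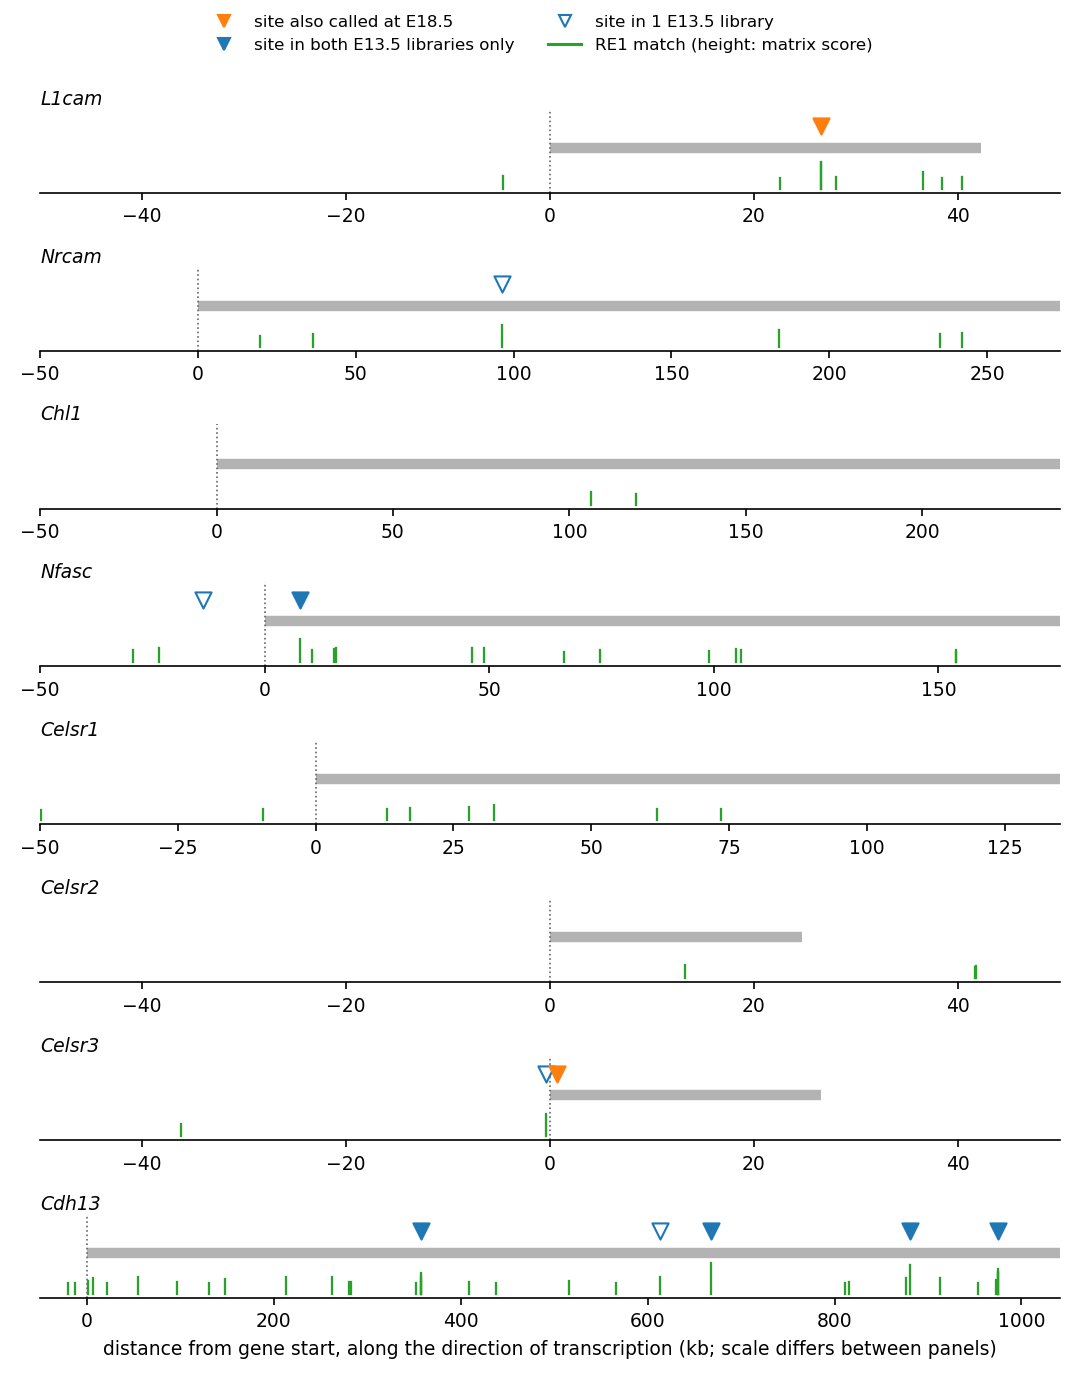
Maps of the 8 genes (grey bar, in kb from the start along the direction of transcription, with a different scale in each panel), with REST sites as triangles above and RE1 matches as green ticks below, whose height is the matrix score. Sites also called at E18.5 are orange, sites in both E13.5 libraries only are filled blue, and sites in 1 E13.5 library are open; the tall ticks stand under triangles.

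The windows of the 8 genes held 77 RE1 matches in all, of which 14 were under a site and 63 were not. All 11 matches above 20 bits were under a site of at least 1 library. Of these, 6 were at Cdh13 and 2 at L1cam, so several shared a site. The ones at Nrcam and upstream of Celsr3 were under sites called in 1 library. The best match left without a site was at Cdh13, with 17.7 bits, and the best at L1cam had 17.2 bits. The 3 genes without a site, Chl1, Celsr1 and Celsr2, held 13 matches between them, and none of these passed 16 bits. Over the genome the share of matches under a site of any library was 0.592% between 14 and 17 bits and 16.2% between 20 and 23 bits. It was 57.0% between 23 and 26 bits and 90.5% above 26 bits. The matrix was learnt on shared E13.5 sites, so the genome shares are not independent of it. The windows of the 8 genes were not used for it, but these genes were chosen with the peak lists known. Their matches are therefore no independent case either.

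**Figure D4:**
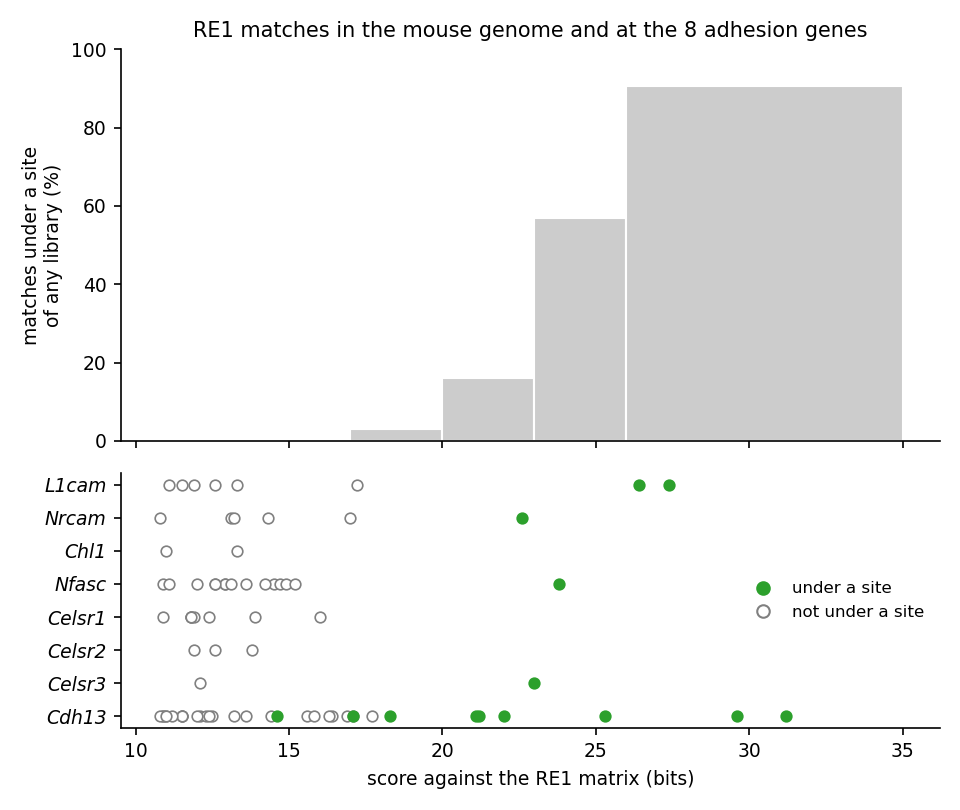
Upper panel, percent of all RE1 matches in the genome that lie under a REST site of any library, by matrix score in bits. Lower panel, the 77 matches in the windows of the 8 genes on the same score axis, filled where a site covers them; no match above 20 bits is open, and the 3 genes without a site have none beyond 16 bits.

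Between the stages the called peaks at these genes were fewer at E18.5, as were called peaks in the whole lists. The 8 genes had 1, 1 and 2 peaks in E18.5 A, B and C, against 8 and 10 in E13.5 A and B. This is a mean of 1.333 ± 0.577 peaks at E18.5 (n = 3) and 9 ± 1.41 at E13.5 (n = 2), a difference of -7.67 that had the smallest p this design allows (exact two-sided permutation test, p = 0.2, adjusted p = 0.267). The ratio of E18.5 to E13.5 was 0.148 for peaks at these genes and 0.289 for all peaks. As a share of its list, the genes took 0.185%, 0.240% and 0.885% of the E18.5 peaks and 0.571% and 0.750% of the E13.5 peaks. The shares of the stages overlap, and their difference of -0.224 percentage points (exact two-sided permutation test, p = 0.6, adjusted p = 0.6) was within the spread between libraries. Counting only peaks within 5 kb of a start, which are all at Celsr3, turned the difference to 0.178 percentage points (exact two-sided permutation test, p = 0.2, the smallest possible). Celsr3 had a peak there in every library, so this share depends mostly on list length, and the E18.5 lists were shorter.

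The number of genes with a peak was 1, 1 and 2 at E18.5 and 4 and 5 at E13.5, a difference of -3.17 (exact two-sided permutation test, p = 0.2, adjusted p = 0.267). Fewer of all protein-coding genes had a site at E18.5 too, 2.20% in at least 2 E18.5 libraries against 6.89% in both E13.5 libraries. Their number per library was not counted, so the difference is not read as a trait of the 8 genes. When every list was reduced to its 226 best-scored peaks, the length of the shortest, the 8 genes had 1, 1 and 2 peaks at E18.5 and 2 and 2 at E13.5. The differences were then -0.667 peaks and -0.667 genes (exact two-sided permutation test, p = 0.6 for each). Within 5 kb of a start they were -0.5 peaks (exact two-sided permutation test, p = 0.8) and 0 genes (p = 1, exact test). List length, and whatever depth or quality lies behind it, cannot be told apart from stage here.

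Of the 7 shared E13.5 sites 2 were called in any E18.5 library, the Celsr3 and L1cam sites, against 40.5% of all 1186. One of the 7, at Celsr3, was called in at least 2 E18.5 libraries, against 20.6% of all shared sites. Whether a site was called at E18.5 went with its E13.5 rank over the whole series. Any E18.5 library called 100% of the 58 sites with a mean E13.5 rank above 95, 78.4% of the 204 between 75 and 90, and 41.3% of the 346 between 50 and 75. Celsr3 was in the top class, L1cam and the Cdh13 site at 975 kb between 75 and 90, and Nfasc intron 1 and the Cdh13 sites at 668 and 881 kb between 50 and 75. The Cdh13 site at 358 kb was below 25, where 9.55% of 178 sites were called at E18.5.

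**Figure D5:**
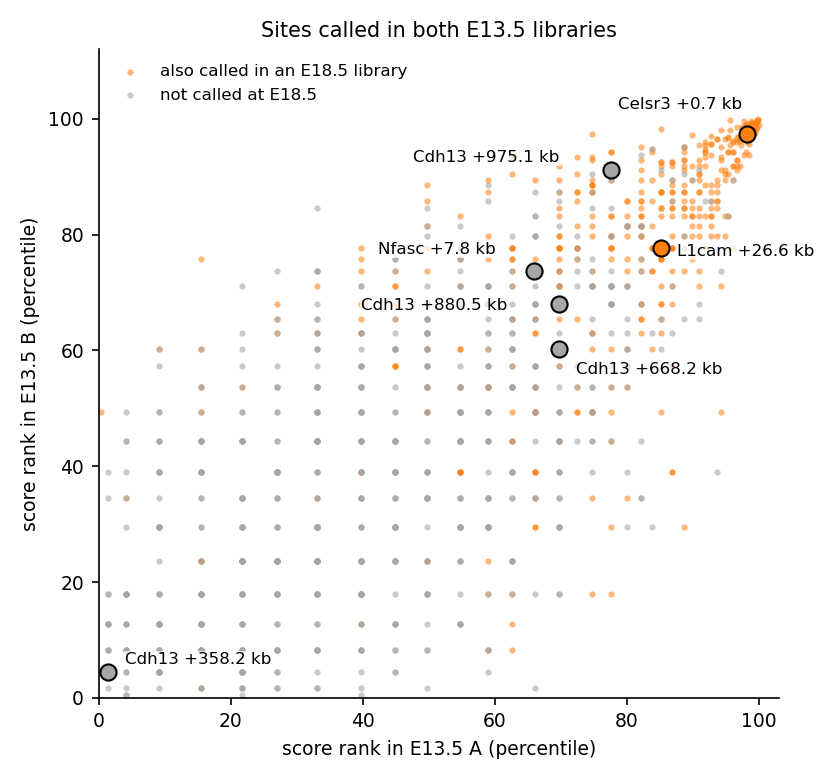
Score rank in E13.5 B (vertical axis, percentile) against score rank in E13.5 A (horizontal axis, percentile) for the 1186 sites called in both, in orange where an E18.5 library also called the site and in grey where none did. The 7 sites at the adhesion genes are the large labelled points; Celsr3 is near the upper right corner among orange points, and the Cdh13 site at 358 kb is near the lower left.

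The partners of these proteins were looked up by the same rule, from lists drawn up with earlier results of these data known. Over all genes the rule took 2.20% in at least 2 E18.5 libraries and 6.89% in both E13.5 libraries. Median windows of the lists ran from 0.1 to 0.474 Mb, against 0.1 Mb over all genes, and a longer window holds more sites. Of 10 ankyrin and paranode partners of the L1 family, 1 had a site in at least 2 E18.5 libraries and 2 in both E13.5 libraries. The first was Cntnap2, the Caspr2 gene of the juxtaparanode, with a site 0.755 kb upstream of its start that scored 6 and 4 in E18.5 A and B, no peak in E18.5 C, and 20 and 17 in E13.5 A and B. The other was Sptbn4, the spectrin of axon initial segments, with a site called at E13.5 only. Ank3, the ankyrin-G gene, named after its values were seen, had a site in intron 1 called in E18.5 A alone, with a score of 6.

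Among 21 other neural immunoglobulin adhesion genes, 2 had a site in at least 2 E18.5 libraries (9.52%) and 7 in both E13.5 libraries (33.3%). Their windows had a median of 0.474 Mb. Cadm3, a synaptic adhesion gene, was called in all 5 libraries, in intron 1, with scores of 10, 13 and 11 in E18.5 A, B and C and 28 and 43 in E13.5 A and B. The other gene at E18.5 was Dscaml1, named after its values were seen, with a site in intron 15 whose nearest start was that of Cep164. Of 41 other cadherin genes found in the annotation, 1 was called in at least 2 E18.5 libraries (2.44%) and 5 in both E13.5 libraries (12.2%). Those 5 were Cdh4, Cdh22, Clstn2, Pcdh1 and Pcdh8, of which all but Pcdh8 are named after their values were seen. The E18.5 gene was the protocadherin gene Pcdh8, whose site lies in coding exon 1, 1.43 kb from the start, as the Celsr3 site does in its own exon 1. Its scores were 17, 7 and 13 at E18.5 and 30 and 38 at E13.5.

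Of 13 planar cell polarity partners of the Celsr family, 1 had a site in at least 2 E18.5 libraries (7.69%) and 2 in both E13.5 libraries (15.4%). These were Dvl1, with a site whose nearest start was that of the taste receptor gene Tas1r3, and Prickle3, with a site whose nearest start was that of the synaptophysin gene Syp. Neither site has the polarity gene's own start as its nearest one. Of 37 axon guidance ligands 0 had a site in at least 2 E18.5 libraries and 1, Slit1, in both E13.5 libraries, a share of 2.70% beside 6.89% of all genes. Of 34 guidance receptors 3 had a site in at least 2 E18.5 libraries (8.82%) and 6 in both E13.5 libraries (17.6%). The netrin receptor gene Unc5a was called in all 5 libraries, in intron 1, with scores of 16, 17 and 11 in E18.5 A, B and C and 66 and 65 in E13.5 A and B. The others at E18.5, named after their values were seen, were the Eph receptor genes Epha8 and Epha10, with sites whose nearest starts were those of C1qa and Maneal.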

How the data were processed

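REST ChIP-seq of 5 pools of wild-type pancreas was analysed. The authors aligned single-end 50-bp reads to mm9 (Bowtie2 2.2.5, 1 mismatch allowed), filtered them at a minimum mapping quality of 10, and ran MACS2 2.1.0 with input DNA as control, as their methods and the processing notes in the labels state. Their methods also describe pooling replicate alignments with SAMtools before peaks were called, at a stricter false discovery rate than the one below. The names of the deposited lists point to duplicate removal and a 10% false discovery rate. There is 1 list per library, so the peaks used here are not the pooled calls that the methods describe. The deposited score is a whole number given by the authors in an unstated unit, and it was used as a rank within its library, except in an alternative on its log2. Read totals are not known, which limits what a missing peak can mean.

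Overlapping entries of a library were merged. Peaks of different libraries that overlapped by at least 1 bp formed a site. Coordinates are mm9 counted from 1, and genes and sequences come from GENCODE vM1 on NCBIM37, the Ensembl name of mm9. Positions were within the ends of the 20 chromosome sequences compared. On sequences not in the reference lay 11, 3 and 3 peaks of E18.5 A, B and C, and 4 of either E13.5 library. These peaks stayed in the lists, sites and ranks without this check. Shared sites without a 500-bp window in the reference were not searched for RE1, which left 1183 of 1186. Features refer to the longest coding transcript. RE1 was learnt and searched with scripts in Python 3.11.15 with NumPy 2.4.6, tested on simulated data with planted elements. Stages were compared over libraries with exact two-sided permutation tests (SciPy 1.17.1), adjusted by Benjamini-Hochberg over 4 comparisons. The labels call the libraries biological replicates. The p-values of the main comparisons come from all 10 splits of these libraries between the stages, so they cannot fall below 0.2. The genes and lists were chosen with earlier results of these data known. Every member was described, and every site in 2 or more libraries. Sites of 1 library were also given. Context genes were named where a site was called in all 5 libraries, and otherwise up to 3 with the highest mean E13.5 rank. Alternatives were other windows, overlaps and limits, equal list lengths, each library left out and a replicate block. The split element was searched after the data were seen.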

Additional observations from a re-analysis of the deposited data

How the results depend on the processing

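With sites within 5 kb of the start only, 1 site and 1 gene were left in both E13.5 libraries, 0 of them with a contiguous RE1 match. The difference in the share of peaks turned to 0.178 percentage points (exact permutation p = 0.2), that in peaks was -0.5 and that in genes 0, since only Celsr3 sites are that close. That share depends mostly on list length. With lists of equal length, 1 site and 1 gene were left in both E13.5 libraries, as fewer peaks were kept. The differences were then -0.667 peaks, -0.667 genes and -1.33 in the Celsr3 rank (exact permutation p = 0.6, 0.6 and 0.8). Without E13.5 A or B the other library alone held 10 or 8 sites, at 5 or 4 genes, and 9 or 6 of them had a contiguous match, where both libraries share 7 sites at 4 genes and 6 with a match. Leaving out any library kept 1 site of 1 gene in at least 2 E18.5 libraries. Differences ran from -8.67 to -6.67 peaks, -3.67 to -2.67 genes, -0.448 (without E18.5 C) to -0.0984 (without E18.5 A) percentage points and -7.69 to -5.17 in the Celsr3 rank. A replicate block on the letters, which name separate pools, gave -8, -3.5, -0.448 and -5.17 (exact permutation p = 0.5 for each). With only letters A and B to pair, 0.5 is the smallest p this block can give, so its p-values decide nothing. Counting split elements as matches, a choice made after the data were seen, gave 7 sites with RE1.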
